A study of Rattus norvegicus with 7 samples.

Results

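The genes described here encode subunits of the mitochondrial oxidative phosphorylation system, and their messenger RNA was measured in hippocampus and hypothalamus of rats fed DHA (docosahexaenoic acid), which belongs to the omega-3 fats and is abundant in brain membranes. Membership was set by symbol: complex I genes (Nduf a, b, c, s and v series), complex II genes (Sdha to Sdhd), complex III genes (Uqcr), nuclear-encoded complex IV genes (Cox4 to Cox8) and ATP synthase genes (Atp5). In all, 71 of the 15805 symbols listed for both tissues carried such a name. Among these 71 symbols, Atp5sl (now Dmac2) and Cox4nb (now Emc8) fit the naming pattern but encode no subunit. They were kept in the counts over the whole set and left out of the counts by complex.

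The samples were 7 poly-A RNA-seq libraries, 4 of hippocampus and 3 of hypothalamus. All came from male Sprague Dawley rats that were 2 months old when assigned to the omega-3 diet and were kept on it for 6 weeks. Libraries of chow-fed rats were not analysed here, so every comparison is between the tissues or among replicates within a tissue, and none is of the diet. The labels do not say whether each library is from its own animal or whether both tissues came from the same rats, so the spread among replicates may be partly technical. Levels are FPKM, a fragment number divided by transcript length and library size, as the authors computed them, with 1 table per tissue.

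Oxidative phosphorylation is the route by which mitochondria turn the energy of food into ATP. Complexes I and II pass electrons from NADH and succinate to ubiquinone, complex III passes them on to cytochrome c, and complex IV hands them to oxygen. Complexes I, III and IV pump protons across the inner membrane, and ATP synthase, also called complex V, lets the protons flow back to make ATP. Most subunits are encoded in the nucleus, while a few core subunits of complexes I, III, IV and V are encoded in mitochondrial DNA. Neurons depend heavily on this route to restore ion gradients after firing. Some subunits of complex IV and the c subunit of ATP synthase have several genes.

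The deposited FPKM summed to 370020 to 391349 per hippocampus library and to 443335 to 471484 per hypothalamus library. For comparisons across tissues the FPKM of each library were therefore brought to a common total of 1000000 across symbols in both tables, and differences were taken between the mean log2(rescaled value + 1) of each tissue. These differences understate the change of low genes. The tissue labels were checked first: all 7 hypothalamic neuropeptide markers, Avp, Oxt and Hcrt among them, lay higher in every hypothalamus library, and all 4 hippocampal markers lay higher in every hippocampus library. Because tissue and table cannot be told apart, no p-value was computed, and "higher" below means that the lowest library of one tissue exceeded the highest of the other.

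The subunits did not differ between the tissues in a single direction. Of the 71 symbols, 69 reached a mean of 1 FPKM in either tissue. Of these 69, 30 (43.5%) were higher in hypothalamus, where the share among all 10736 symbols passing the same filter was 24.4%, and 21 (30.4%) were higher in hippocampus, against 28.2% of all symbols. With a difference of at least 2-fold also required, 22 (31.9%) were higher in hypothalamus, against 13.4% of all symbols, and 13 (18.8%) were higher in hippocampus, against 14.5%. Libraries of the tissues did not overlap for 51 of the 69 (73.9%), where 52.6% of all symbols had no overlap. These counts include both genes that encode no subunit. Atp5sl measured 14.7, 10.6, 10.6 and 9.40 FPKM in hippocampus and 27.6, 31.2 and 44.1 in hypothalamus, 1.27 higher in hypothalamus on the log2 scale. Cox4nb measured 46.2, 33.7, 34.6 and 23.1 and 22.9, 21.0 and 24.7, 0.84 higher in hippocampus after scaling, while its libraries overlapped on FPKM as deposited. In bulk tissue, fewer cells of a type and less RNA per cell cannot be told apart.

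The middle of the distribution lay close to that of all symbols, and its width did not. The median difference, hippocampus minus hypothalamus, was −0.12 on the log2 scale over the 69 genes and 0.05 over all symbols. The median size of the difference regardless of direction was 1.11 for the 69 genes and 0.63 for all symbols. Highly expressed symbols differed more in general: among the 1995 symbols whose mean reached 50 FPKM the median size was 0.84, and among the 59 genes of the set that reached this level it was 0.93. At this level 19 of the 59 (32.2%) were higher in hypothalamus by 2-fold, against 19.5% of all symbols, and 10 (16.9%) were higher in hippocampus, against 20%. Libraries did not overlap for 42 of the 59 (71.2%), against 64.4% of all symbols at this level. The choice of scaling moved the split. On FPKM as deposited, 28 genes (40.6%, against 16.9% of all symbols) were higher in hypothalamus by 2-fold and 6 (8.7%, against 8.64%) in hippocampus, so that hypothalamus held 82.4% of these calls rather than 62.9%. Without overlap in either direction were then 53 of the 69 (76.8%), against 54.2% of all symbols. The median over all symbols was then −0.21 and that over the 69 genes −0.42, which is −0.20 relative to all symbols, compared with −0.17 after rescaling. All 22 genes called higher in hypothalamus by 2-fold were so called under each of 4 scalings, while 6 of the 13 called in hippocampus were: Atp5f1, Cox5a, Cox7a2, Cox7c, Ndufa8 and Ndufv3.

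**Figure D1:**
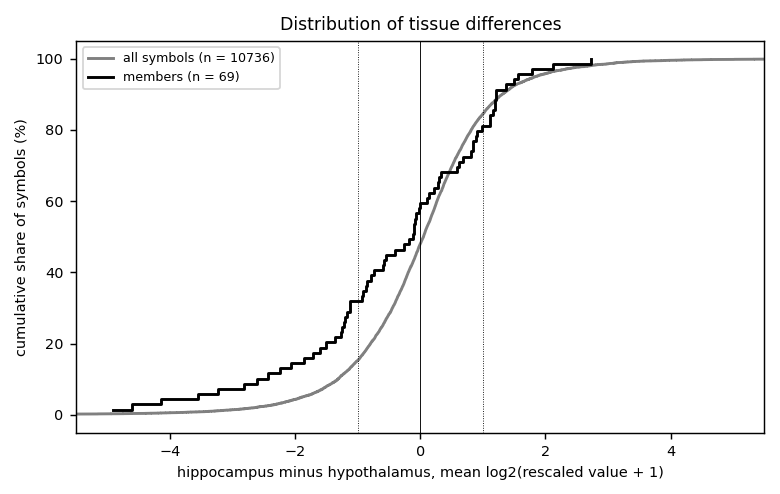
Cumulative share of symbols (vertical axis, %) by the difference between tissues (horizontal axis, hippocampus minus hypothalamus, log2 scale), for the oxidative phosphorylation genes and for all symbols whose mean reached 1 FPKM. The horizontal axis ends short of the extremes of all symbols, which ran from −12.06 to 11.88. The lower and upper quartiles of the 69 genes were −1.22 and 0.84, and those of all symbols at 1 FPKM −0.60 and 0.66. Those of symbols at 50 FPKM, which are not drawn, were −0.82 and 0.84.

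**Figure D2:**
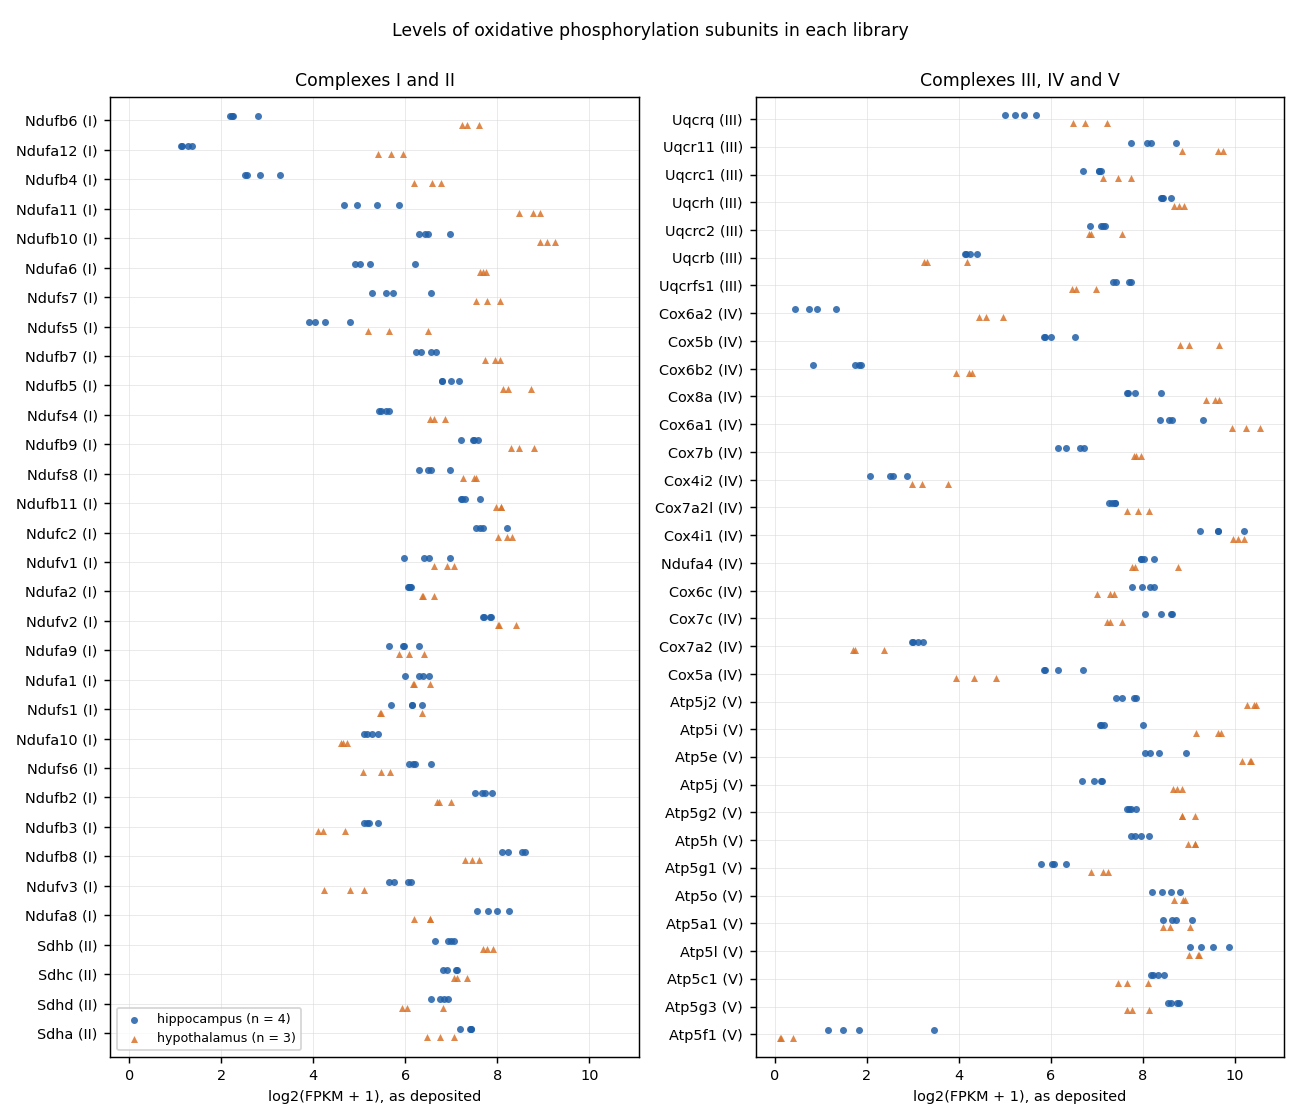
Level of 66 subunit genes that passed the filter, as log2(FPKM + 1) as deposited (horizontal axis), grouped by complex, with 1 point per library coloured by tissue. The lowest points are Atp5f1 in hypothalamus and Cox6a2 in hippocampus.

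By complex, ATP synthase and complex IV had higher median levels in hypothalamus, and complexes II and III did not. For ATP synthase the median over its 13 genes was 655 to 815 in the hippocampus libraries and 1038 to 1246 in the hypothalamus libraries on the rescaled scale, with no overlap under any of the 4 scalings. For the 14 complex IV genes the medians were 354 to 386 and 419 to 498, again without overlap under any of the 4. Complex I (29 genes) had medians of 196 to 269 and 251 to 313, which overlapped after rescaling but not on FPKM as deposited (69.4 to 92.6 and 105 to 132) or with upper-quartile scaling. Complex II (4 genes) ranged from 343 to 382 in hippocampus and from 263 to 347 in hypothalamus, and the tissues separated, with hippocampus higher, under median-ratio scaling alone. Complex III (7 genes) ranged from 383 to 413 and from 253 to 441 and overlapped under all 4.

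**Figure D3:**
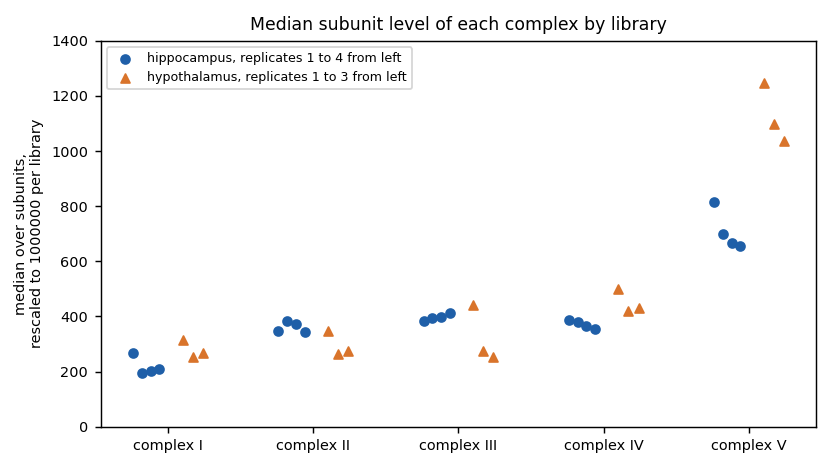
Median rescaled value over the subunit genes of each complex (vertical axis, each library scaled to a sum of 1000000) for every library, by complex and tissue. The hypothalamus libraries lie above the hippocampus libraries for complexes IV and V, and the tissues overlap for complexes I, II and III.

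Complex I held the widest range of differences, and its core subunits had the smallest differences, with a median size of 0.59 against 1.15 over the whole complex. The core subunits carry the flavin and the iron-sulfur clusters that move electrons from NADH to ubiquinone, and 6 of their genes were listed in both tissues. Ndufs7, which holds the last iron-sulfur cluster, was higher in hypothalamus, with 92.6, 46.9, 52.2 and 38.0 FPKM in hippocampus replicates 1 to 4 and 217, 184 and 266 in hypothalamus replicates 1 to 3 (the same order is used below), a difference of 1.71 on the log2 scale. The core genes Ndufs1, Ndufs8, Ndufv1 and Ndufv2 overlapped between tissues.

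Ndufv2, a core gene of the NADH-oxidising module, had nearly equal rescaled levels: its FPKM was 233, 208, 206 and 229.6 in hippocampus and 339, 262 and 257 in hypothalamus, a difference of −0.08 after rescaling. On FPKM as deposited the same gene, together with Ndufs8, lay higher in every hypothalamus library. Ndufs8 did so too with upper-quartile and median-ratio scaling, and without hippocampus replicate 1 or hypothalamus replicate 2. It also did so when the loci of every symbol were summed before rescaling, although Ndufs8 itself had 1 locus in each tissue.

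The accessory subunits of the B series, which sit in the proton-pumping membrane arm, did not overlap between tissues for any of 10 genes, where 52.6% of all symbols and 64.4% of those at 50 FPKM had no overlap. Of the 10, 7 were higher in hypothalamus (24.4% of all symbols were) and 3 in hippocampus (28.2%). Ndufb6 had the largest difference of the whole set, with 3.67, 3.75, 3.59 and 5.92 FPKM in hippocampus and 192, 148 and 162 in hypothalamus, 4.92 higher in hypothalamus on the log2 scale. Ndufb4 was listed at 8.76, 4.68, 4.91 and 6.14 in hippocampus and 72.2, 94.7 and 109 in hypothalamus (difference 3.56). Ndufb10 followed, at 124, 85.1, 88.7 and 77.5 and 607, 488 and 538 (difference 2.25). In each of these the lowest hypothalamus library was several times the highest hippocampus library.

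Ndufb7 and Ndufb5 were also higher in hypothalamus by 2-fold, by 1.17 and 1.13, while Ndufb9 and Ndufb11 were higher by 0.79 and 0.40. Without hypothalamus replicate 1 the difference of Ndufb5 was 0.93, under 2-fold. The same membrane arm also held genes with the opposite direction. Ndufb8 measured 297, 387, 372 and 275 FPKM in hippocampus and 175, 156 and 194 in hypothalamus, and was 1.22 higher in hippocampus. Ndufb2 (208 ± 21.5, SD, n = 4, and 111 ± 13.0, SD, n = 3) and Ndufb3 (36.3 ± 3.48 and 19.4 ± 4.65) were each 1.20 higher in hippocampus. The 2-fold calls of all 3 were lost on FPKM as deposited, where their libraries still did not overlap.

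Of the 13 other accessory subunits of complex I, 5 were higher in hypothalamus (24.4% of all symbols were), 4 were higher in hippocampus (28.2% of all symbols) and 4 overlapped. Ndufa12, which lies next to the NADH-oxidising module and takes the place of an assembly factor late in assembly, was listed at 1.44, 1.19, 1.58 and 1.21 FPKM in hippocampus and 41.4, 61.2 and 50.9 in hypothalamus, a difference of 4.61. Ndufa11, a membrane-arm subunit, measured 57.0, 29.9, 40.4 and 24.4 and 481, 352 and 436 (difference 3.23). Ndufa6, a subunit that binds the acyl carrier protein, measured 73.1, 31.3, 36.5 and 29.0 and 206, 196 and 214 (difference 2.07), and hippocampus replicate 1 stood above the other 3. Each of these 3 genes was higher in every hypothalamus library.

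Ndufa6 had a further locus in the hippocampus table with a mean of 25 FPKM, and with both loci summed it was still higher in hypothalamus by 2-fold, at −1.38 for hippocampus minus hypothalamus. Ndufs5 measured 27.0, 13.97, 18.2 and 15.5 and 88.5, 35.7 and 48.8, 1.26 higher in hypothalamus, with hypothalamus replicate 1 well above the other libraries of that tissue. Without that library the difference was 0.88, under 2-fold. Ndufs4, an accessory subunit whose loss in people causes Leigh syndrome, was also higher in hypothalamus, by 0.86. Ndufa2, Ndufa9 and Ndufc2 overlapped, with differences for hippocampus minus hypothalamus of −0.08, 0.15 and −0.12. Ndufa2 lay higher in every hypothalamus library under each of the other 3 scalings and without hypothalamus replicate 3, and Ndufc2 did so without hippocampus replicate 1.

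On the hippocampal side, Ndufa8 was the most different of complex I, with 304, 254, 221 and 188 FPKM in hippocampus and 91.2, 71.9 and 92.0 in hypothalamus, 1.79 higher in hippocampus. Ndufv3 measured 69.1, 65.3, 49.0 and 53.1 and 17.8, 26.7 and 33.1 (difference 1.5), and Ndufs6, an accessory subunit that binds zinc, measured 93.2, 71.3, 66.6 and 72.7 and 49.6, 32.9 and 43.5 (difference 1.15). Ndufa10 was higher in hippocampus by 0.89. Ndufa8 had another locus in the hypothalamus table that was listed at 0 in all 3 libraries. Ndufa1 overlapped between tissues at its leading locus, with a difference of 0.29, and became higher in hippocampus by 2-fold, at 1.09, when its loci were summed. Its further locus was listed in hippocampus only, at 49.7, 52.7, 27.1 and 129 FPKM, so the sum sets 2 loci against 1.

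**Figure D4:**
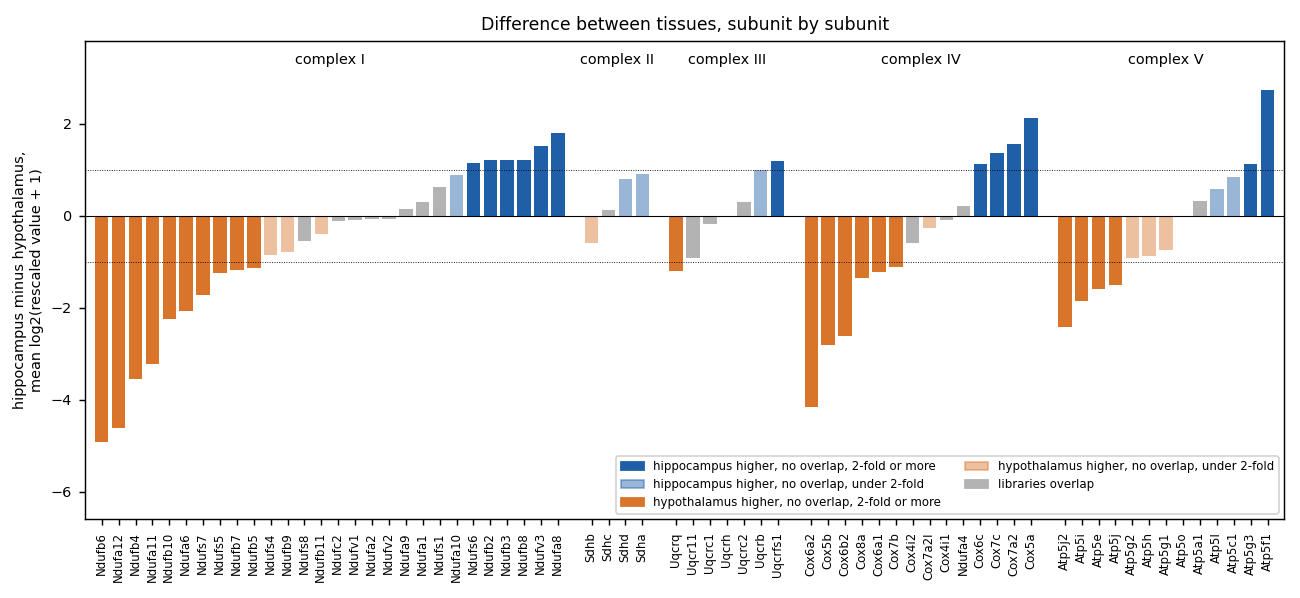
Difference between the tissues for 66 subunit genes (vertical axis, hippocampus minus hypothalamus, mean log2(rescaled value + 1)), grouped by complex; the fill of each bar marks whether the libraries of the tissues overlap and whether the difference reaches 2-fold. Bars point both ways within every complex, from −4.92 for Ndufb6 to 2.73 for Atp5f1.

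Complex II, succinate dehydrogenase, is the only complex of the chain built wholly from nuclear genes, and it is also an enzyme of the citric acid cycle. None of its 4 genes differed by 2-fold. Sdha, the flavoprotein, measured 171, 171, 167 and 144 FPKM in hippocampus and 132, 87.9 and 106 in hypothalamus and was 0.90 higher in hippocampus. Sdhb, the iron-sulfur subunit that binds Sdha, went the other way, with 127, 133, 120.1 and 99.5 and 218, 205 and 239 (0.59 higher in hypothalamus). The membrane anchor Sdhd was 0.81 higher in hippocampus, with 92.8, 114, 107 and 120.2 and 112, 65.1 and 59.5. The libraries were barely apart: after rescaling, hippocampus replicate 1 was at 269.9 and hypothalamus replicate 1 at 267.7. They overlapped on FPKM as deposited, with upper-quartile scaling, and when the loci of every symbol were summed before rescaling.

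The other anchor, Sdhc, overlapped at 126 ± 13.0 (SD, n = 4) and 144 ± 14.2 FPKM (SD, n = 3). Without hypothalamus replicate 1, Sdhc lay higher in every hippocampus library after rescaling. The 4 genes lay within a narrow range of one another: the highest was 1.44 to 1.84 times the lowest within each hippocampus library and 1.94 to 4.01 times within each hypothalamus library. In complex I the same ratio was 211 to 326 in hippocampus and 30.3 to 34.1 in hypothalamus. The FPKM scale corrects for transcript length only as well as the annotation behind it, which is not given in the sources used here.

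Complex III had 7 genes, of which 4 overlapped, 2 were higher in hippocampus (28.2% of all symbols were) and 1 was higher in hypothalamus (24.4%). Uqcrfs1, the Rieske iron-sulfur protein, measured 163, 212, 171 and 208 FPKM in hippocampus and 126, 86.8 and 93.2 in hypothalamus, 1.19 higher in hippocampus. Uqcrq, a small subunit, measured 50.2, 41.7, 36.6 and 31.3 and 148, 88.1 and 107, 1.20 higher in hypothalamus (0.98, under 2-fold, without hypothalamus replicate 1). Uqcrb, another small subunit, had low values, 18.03, 16.8, 16.7 and 20 and 17.1, 8.91 and 8.47, and was 0.98 higher in hippocampus, with overlap on FPKM as deposited. The core proteins Uqcrc1 and Uqcrc2 overlapped between tissues, as did the hinge protein Uqcrh and Uqcr11. Without hypothalamus replicate 1, Uqcrc2 lay higher in every hippocampus library. On FPKM as deposited Uqcrc1, Uqcrh and Uqcr11 lay higher in every hypothalamus library, Uqcr11 by 2-fold, and without hypothalamus replicate 2 Uqcrc1 did so after rescaling. Uqcr11 measured 424, 289.8, 271 and 214 in hippocampus and 461, 795 and 862 in hypothalamus, and of the hypothalamus libraries replicate 1 alone fell within the hippocampus range after rescaling. Without that library, or without hippocampus replicate 1, it was higher in hypothalamus by 2-fold.

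Complex IV, cytochrome c oxidase, had 14 genes above the filter. Of its 10 ubiquitous genes, 4 were higher in hippocampus and 4 in hypothalamus, each by 2-fold, where 14.5% and 13.4% of all symbols were. Cox5a and Cox5b, whose products both attach to the catalytic core, lay in opposite directions: Cox5a measured 57.2, 103, 70.3 and 58.1 FPKM in hippocampus and 27.2, 14.3 and 19.1 in hypothalamus, 2.12 higher in hippocampus. Cox5b measured 90.7, 56.9, 63.3 and 57.4 and 812, 448 and 513, 2.81 higher in hypothalamus. In both genes the libraries were far apart. Cox6a1 was higher in hypothalamus at 633, 396, 382 and 329 and 978, 1206 and 1505 (difference 1.22), and was among the most abundant genes of the set there. Cox8a measured 335, 200.2, 225 and 204 and 804, 666 and 764 (difference 1.36). Cox7b measured 105, 70.5, 98.7 and 80.0 and 231, 223 and 249 (difference 1.12).

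The remaining ubiquitous genes that were higher in hippocampus were Cox7a2, Cox7c and Cox6c, small subunits around the core. Cox7c measured 338, 396, 265 and 388 FPKM in hippocampus and 187, 149 and 155 in hypothalamus (difference 1.37). Cox6c measured 303, 285, 216 and 251 and 166, 128 and 154 (difference 1.11). Cox7a2 was listed low in both tissues, at 8.35, 7.002, 6.93 and 7.64 and 4.18, 2.25 and 2.39 (difference 1.56). Cox4i1, which carries a site for regulation by ATP, was the most abundant gene of complex IV in hippocampus, with 1176, 790.0, 789 and 609, and overlapped with hypothalamus, with 1181, 989.9 and 1072. Ndufa4, once assigned to complex I and now counted with complex IV, also overlapped.

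Among the second isoforms of complex IV subunits, Cox6a2 and Cox6b2 were higher in hypothalamus by 2-fold. Cox6a2, the heart and skeletal muscle form of subunit 6A, was listed at 1.52, 0.885, 0.370 and 0.689 FPKM in hippocampus and 23.3, 30.4 and 20.8 in hypothalamus, 4.15 higher in hypothalamus. It was 0.192% ± 0.0645 (SD, n = 4) of the summed FPKM of Cox6a1 and Cox6a2 in hippocampus and 2.05% ± 0.600 (SD, n = 3) in hypothalamus, without overlap. Markers of striated muscle summed to 7.33 to 13.3 FPKM over 8 genes in hippocampus and 14.6 to 16.9 in hypothalamus. Acta1 was the most abundant of them, at 5.79 to 9.02 and 9.72 to 12.9 FPKM. It and Myh6, the 2 above the filter, overlapped after rescaling. Below the filter, Ckm, Tnnt3 and Myh7 lay higher in every hypothalamus library, and Mb, Tnni2 and Actc1 overlapped. The creatine kinase gene Ckm was at 0 to 0.131 FPKM in hippocampus and at 0.206 to 0.699 in hypothalamus. The part of muscle in the Cox6a2 level was not tested. Cox6b2, the testis form of subunit 6B, measured 2.57, 2.34, 2.69 and 0.794 and 14.5, 18.6 and 17.6 (difference 2.62).

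Cox4i2, a form of subunit 4 linked to oxygen supply, made up 0.585% ± 0.162 (SD, n = 4) of subunit 4 FPKM in hippocampus and 0.843% ± 0.211 (SD, n = 3) in hypothalamus, which overlapped. Cox7a2l, which joins complexes III and IV into a supercomplex, was higher in hypothalamus by 0.26, with 162 ± 6.80 (SD, n = 4) and 240.1 ± 38.6 FPKM (SD, n = 3). Of the subunit 8 isoforms, Cox8b did not exceed 1.35 FPKM in any library and Cox8c was listed at 0 in all 7, so neither passed the filter.

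In ATP synthase, 7 of 13 genes were higher in hypothalamus, against 24.4% of all symbols, and 4 in hippocampus, against 28.2%, while Atp5a1 and Atp5o overlapped. The catalytic head and the central stalk turn the flow of protons into ATP. Atp5e, the epsilon subunit of the central stalk, measured 488, 285, 328 and 265 FPKM in hippocampus and 1308, 1137 and 1285 in hypothalamus, 1.6 higher in hypothalamus. Atp5c1, the gamma subunit that rotates inside the head, was 0.85 higher in hippocampus, at 321, 351, 297 and 289.9 and 277, 176 and 202. Atp5a1, the alpha subunit of the head, overlapped, with 425 ± 80.8 (SD, n = 4) and 418 ± 93.2 FPKM (SD, n = 3). With all libraries the 3 genes of the head and central stalk thus showed 3 different patterns. Without hypothalamus replicate 1, Atp5a1 lay higher in every hippocampus library, as Atp5c1 did.

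The small membrane subunits of ATP synthase, which help pair the enzyme into dimers, were among the highest of the set in hypothalamus. Atp5j2 measured 224, 188, 169 and 229 FPKM in hippocampus and 1416, 1228 and 1357 in hypothalamus, a difference of 2.43, and Atp5i measured 258, 135, 133 and 142 and 791, 566 and 829 (difference 1.87). Atp5j2 had the highest hypothalamus mean of all 71 genes, 1334 ± 96.0 FPKM (SD, n = 3). Atp5l, another small membrane subunit, had the opposite order, at 612, 732, 523 and 939.9 in hippocampus and 593, 591 and 510.3 in hypothalamus (0.58 higher in hippocampus). Its libraries overlapped on FPKM as deposited and with upper-quartile scaling. RefSeq names 11 other loci after Atp5l, such as pseudogenes, and its fragments may be shared with them.

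The peripheral stalk holds the head still against the rotor. Atp5j, one of its subunits, measured 137, 136, 122 and 102 FPKM in hippocampus and 430.0, 461 and 405 in hypothalamus, 1.51 higher in hypothalamus, and Atp5h was 0.87 higher there. Atp5f1, the b subunit that forms the stalk's long helix, was listed at 2.60, 1.79, 10.1 and 1.25 in hippocampus and at 0.327, 0.110 and 0.0826 in hypothalamus, 2.73 higher in hippocampus. The hypothalamus values are the lowest of any gene of the set above the filter, and its other locus did not exceed 9.13 FPKM in any library. With a pseudocount of 0.1 in place of 1 the difference was 4.17, and with 5 it was 1.36.

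The c subunit, which forms the rotating ring in the membrane, is encoded by the genes Atp5g1, Atp5g2 and Atp5g3, whose mature products are the same while their import signals differ. Their summed level overlapped between tissues after rescaling, 1977 ± 88.0 (SD, n = 4) in hippocampus and 2028 ± 279 (SD, n = 3) in hypothalamus, and was higher in every hypothalamus library on FPKM as deposited and with upper-quartile scaling. The gene that led the sum was not the same. Atp5g3 gave 56.0%, 61.2%, 58.5% and 61.7% of the summed FPKM in the hippocampus libraries and 28.5%, 27.3% and 24.9% in the hypothalamus libraries. Atp5g2 gave 32.7%, 30.9%, 31.4% and 29.0% in hippocampus and 57.4%, 58.0% and 56.7% in hypothalamus. For both genes the libraries of the tissues were far apart, and these shares do not depend on the scaling between tables.

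Atp5g1 took the rest, 9.61% ± 1.44 (SD, n = 4) in hippocampus and 15.8% ± 2.33 (SD, n = 3) in hypothalamus, also without overlap. In FPKM, Atp5g3 measured 393, 426, 373 and 442 in hippocampus and 281, 218 and 202 in hypothalamus, 1.11 higher in hippocampus after rescaling and 0.99, under 2-fold, without hypothalamus replicate 3. Atp5g2 measured 230.0, 215, 200.5 and 207 and 566, 464 and 461. RefSeq names 6 other loci after Atp5g2, 4 after Atp5g1 and none after Atp5g3, and how the authors' counting treated fragments shared with them is not given in the sources used here.

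**Figure D5:**
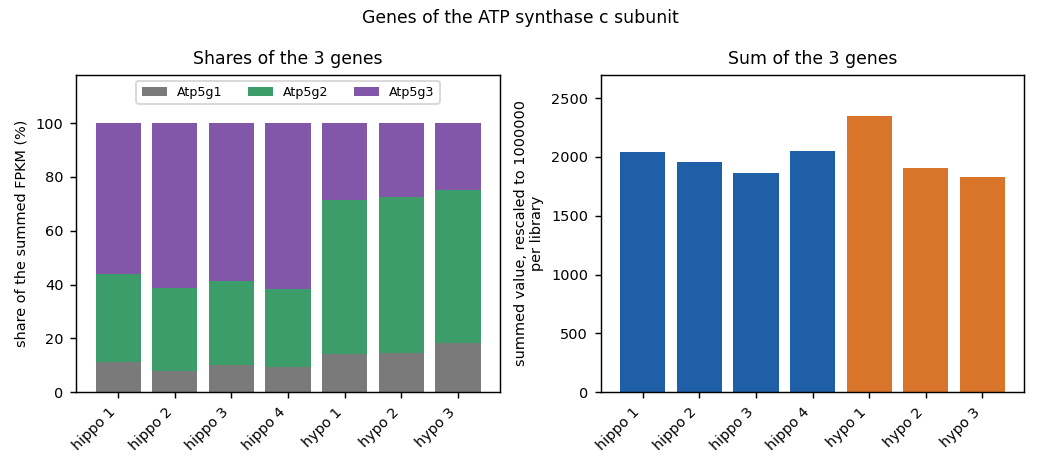
Left, share of the summed FPKM of the c subunit genes (vertical axis, %) taken by Atp5g1, Atp5g2 and Atp5g3 in each library; right, the sum of the 3 genes per library after rescaling to 1000000. Atp5g3 leads in all 4 hippocampus libraries and Atp5g2 in all 3 hypothalamus libraries, while the sums overlap.

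The 250 bases before the RefSeq start of each c subunit gene are printed because these genes, with the same mature product, had different shares in the tissues. They are from RefSeq (rat assembly GRCr8, not the build of the deposited files), on the minus strand, written 5′ to 3′, and capitals mark a match to the NRF1 motif, GCGCA, any base, then GCGC, or its reverse complement GCGC, any base, then TGCGC. The regions are chr10:81523346-81523595 for Atp5g1, chr7:135678219-135678468 for Atp5g2 and chr3:79220665-79220914 for Atp5g3.
Atp5g1: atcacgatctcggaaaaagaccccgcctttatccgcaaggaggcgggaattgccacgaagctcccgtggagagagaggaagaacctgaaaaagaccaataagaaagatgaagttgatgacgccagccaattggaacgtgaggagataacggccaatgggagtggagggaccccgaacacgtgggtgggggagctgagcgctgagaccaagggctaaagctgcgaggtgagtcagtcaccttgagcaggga
Atp5g2: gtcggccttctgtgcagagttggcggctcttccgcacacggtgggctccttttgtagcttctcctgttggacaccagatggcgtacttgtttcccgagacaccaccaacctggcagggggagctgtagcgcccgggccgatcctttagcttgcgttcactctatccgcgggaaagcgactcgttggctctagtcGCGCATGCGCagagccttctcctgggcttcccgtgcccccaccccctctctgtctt
Atp5g3: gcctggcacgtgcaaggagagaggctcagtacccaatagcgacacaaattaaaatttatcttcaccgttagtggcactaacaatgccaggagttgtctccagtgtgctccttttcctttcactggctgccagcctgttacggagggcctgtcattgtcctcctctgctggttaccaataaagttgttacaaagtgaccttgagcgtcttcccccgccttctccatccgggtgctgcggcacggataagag

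The NRF1 motif occurred once, in Atp5g2, beginning 56 bases before the start, and the other 2 promoters held no match to any of the 3 motifs searched. NRF1 is a factor of nuclear genes for mitochondrial proteins, and the other motifs were an ETS family motif (CCGGAAG or CTTCCGG) and a YY1 motif (AAGATGGC or GCCATCTT), all searched on both strands, and the letters of none lie within another. Of the 71 genes, 61 had a promoter in the table. Among these, 10 (16.4%) held the NRF1 motif, against 5.07% of 21851 protein-coding promoters, 19 (31.1%) the ETS motif, against 9.01%, and 2 (3.28%) the YY1 motif, against 1.64%. Any of the 3 occurred in 28 (45.9%), against 14.5%. The promoters of the set also held more CG dinucleotides, with a median of 16 against 8. By tissue, any motif occurred in 10 of the 20 promoters of genes higher in hypothalamus by 2-fold and in 3 of the 11 of genes higher in hippocampus. A match is a description of the letters, not of binding.

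Several genes that are the sole gene of their subunit in the set were listed at very low FPKM in hippocampus. Ndufb6, Ndufa12 and Ndufb4 were at means of 4.23, 1.35 and 6.12 FPKM in hippocampus, whereas the median gene of complex I was at 69.4 to 92.6. RefSeq names 97 other loci after 35 of the 69 genes, as pseudogenes or gene-like copies by their names, and shared fragments could be split among such copies. Ndufb4 has 11 named copies, Ndufa12 has 1 and Ndufb6 none. The 34 genes without a named copy had a median size of the difference of 1.12, against 0.98 for the 35 with copies. Of the 34, 24 (70.6%) did not overlap, against 27 of the 35 (77.1%) and 52.6% of all symbols. Only loci named after a gene were counted as copies, so the 34 may have copies under other names. How the authors built and assigned loci was not tested as a source of the low values.

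Other genes of the pathway were taken from lists. Of 31 assembly factors above the filter, 7 (22.6%, against 24.4% of all symbols) were higher in hypothalamus and 9 (29.0%, against 28.2%) in hippocampus, with a median difference of 0.29, so both shares were near those of all symbols. On FPKM as deposited the counts were 9 in hypothalamus, where 35.2% of all symbols were higher, and 5 in hippocampus, where 19% were. By 2-fold, 4 were higher in hypothalamus, against 13.4% of all symbols, and 3 in hippocampus, against 14.5%. Pet100, an assembly factor of complex IV, measured 29.7, 20.9, 22.7 and 15.5 FPKM in hippocampus and 190.0, 250.0 and 275 in hypothalamus, 3.13 higher in hypothalamus. Bcs1l, which inserts the Rieske protein Uqcrfs1 into complex III, measured 23.0, 29.2, 24.2 and 29.3 and 8.75, 8.14 and 9.06, 1.85 higher in hippocampus, the same direction as Uqcrfs1. Of 11 electron carriers and subunits with other names, 4 (36.4%, against 24.4% of all symbols) were higher in hypothalamus and 1 in hippocampus, with a median of −0.51. The 1 call in hippocampus was lost under each of the other 3 scalings, and on FPKM as deposited 8 were higher in hypothalamus (35.2% of all symbols were), with a median of −0.80. They included cytochrome c itself, Cycs (10.6, 9.38, 9.88 and 9.76 and 59.8, 44.0 and 34.2 FPKM, 1.84 higher in hypothalamus), and the acyl carrier protein of complex I, Ndufab1 (1.59 higher in hypothalamus).

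The enzymes of the citric acid cycle, which feed the chain with NADH and succinate, overlapped between tissues in 9 of 15, while 3 (20%) were higher in each tissue, against 28.2% of all symbols in hippocampus and 24.4% in hypothalamus, with a median of 0.28. The 3 calls in hippocampus fell to 1 with upper-quartile scaling and to 0 on FPKM as deposited (19% of all symbols), with 3 in hypothalamus under both (35.2% of all symbols as deposited). Mdh2, malate dehydrogenase, was the one enzyme with a 2-fold difference and no overlap, at 101, 85.6, 83.0 and 63.7 FPKM in hippocampus and 322, 309 and 370.4 in hypothalamus, 1.71 higher in hypothalamus. Dld and Sucla2 had means 1.20 and 1.04 higher in hippocampus, with libraries that overlapped. Of 15 regulators of mitochondrial biogenesis, 6 (40.0%, against 28.2% of all symbols) were higher in hippocampus and none (against 24.4%) was higher in hypothalamus (median 0.54). Ppargc1a, the coactivator PGC-1alpha, measured 6.33, 8.64, 8.30 and 13.3 and 4.52, 4.91 and 4.18, 1.19 higher in hippocampus, and Tfb1m, Polg and Tfb2m, which serve mitochondrial ribosomal RNA, DNA replication and transcription, were higher there by 1.47, 1.25 and 1.15.

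Of 14 carriers and import genes, 3 (21.4%, against 28.2% of all symbols) were higher in hippocampus and 2 (14.3%, against 24.4%) were higher in hypothalamus (median 0.24). Timm23, the inner membrane import channel, was 2.99 higher in hippocampus, and Vdac1, the outer membrane channel, was 1.57 higher there, but with a hypothalamus replicate 1 value of 10.6 FPKM against 138 and 149 in the other 2. Of the 13 mitochondrially encoded subunits, none was in both tables, so they are not analysed here. The genes Ndufs3, Ndufa7, Atp5d and Atp5s were listed in the hypothalamus table only, at 144 ± 19.9, 445 ± 51.3, 242 ± 28.2 and 4.85 ± 2.98 FPKM (SD, n = 3), and are likewise outside the counts. On FPKM as deposited the medians of the assembly factors, the citric acid cycle enzymes and the carriers fell just below 0, at −0.0015, −0.01 and −0.05, and 1 regulator was higher in hypothalamus, with 5 higher in hippocampus (35.2% and 19% of all symbols were).

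Cell type markers differed between the tissues as well. The lists are short, and their counts stand beside 28.2% of all symbols higher in hippocampus and 24.4% higher in hypothalamus. Of 6 neuronal markers, 4 were higher in hippocampus and 1 was higher in hypothalamus. Their FPKM summed to 1535 to 2407 and 1186 to 1517. Of 6 oligodendrocyte markers, 1 was higher in hippocampus and 2 in hypothalamus, and the sums were 3703 to 4630 and 5808 to 7732. Of 5 astrocyte markers, 2 were higher in hypothalamus (602.8 to 747 and 939.8 to 1322), and of 6 microglia markers, 3 were higher in hypothalamus and 1 in hippocampus (127 to 174 and 245 to 254). Endothelial markers were higher in hippocampus in 3 of 5 (127 to 165 and 65.8 to 94.3), and pericyte markers in hypothalamus in 3 of 7 (58.7 to 104 and 100.1 to 167). Parvalbumin interneuron markers summed to 102 to 132 and 107 to 163, with 1 of 5 higher in hippocampus.

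Choroid plexus markers summed to 35.5 to 5951 FPKM in hippocampus, lowest in replicate 2, and to 14.7 to 53.5 in hypothalamus; none of 6 separated the tissues, and Otx2 was listed at 0 in all 7 libraries. Meningeal markers summed to 31.1 to 264 and 72.0 to 396, none of 5 separated the tissues, and Col1a2 was at 0 throughout. The part of these cell types in the differences of the subunits was not tested. On FPKM as deposited, 2 neuronal markers rather than 4 and 2 endothelial markers rather than 3 were higher in hippocampus, where 19% of all symbols were. In hypothalamus 3 astrocyte markers rather than 2 and 4 microglia markers rather than 3 were then higher. So was 1 of the 2 muscle markers above the filter rather than none, where 35.2% of all symbols were. The other lists kept their counts.

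Within a tissue, the subunits had a spread among replicates close to that of all symbols. The median SD of log2(FPKM + 1) was 0.23 over 68 genes of the set in hippocampus and 0.23 over all symbols, and 0.22 and 0.25 in hypothalamus. Among genes above the filter, the one with the largest SD in hippocampus was Atp5f1 (1.02), followed by Ndufa6 (0.60), Ndufs7 (0.54), Ndufa11 (0.52) and Cox6b2 (0.49). In hypothalamus it was Ndufs5 (0.65), followed by Ndufa4 (0.56), Uqcrb (0.52), Ndufs1 (0.51) and Sdhd (0.49). No gene above the filter fell below 0.1 times the lowest other library of its tissue in any library.

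In each tissue 1 library held the highest value for most of the genes. Hippocampus replicate 1 had the highest rescaled value for 42 of the 69 genes (60.9%), where 31.1% of all symbols were highest in it, and the set took 3.63% of the FPKM of the shared symbols there and 3.07%, 3.03% and 2.98% in replicates 2 to 4. Hypothalamus replicate 1 had the highest value for 49 of the 69 (71.0%, against 47.2% of all symbols), with a share of 4.80% where replicates 2 and 3 had 4.07% and 4.29%. The shares of the tissues did not overlap. Leaving out hypothalamus replicate 1 alone lost the 2-fold calls of Ndufb5, Ndufs5 and Uqcrq and gained that of Uqcr11, giving 20 higher in hypothalamus and 17 in hippocampus. Without the fold limit, Atp5a1, Ndufa4, Ndufs1, Sdhc and Uqcrc2 then became higher in hippocampus, and Uqcr11 in hypothalamus. Leaving out replicate 1 of both tissues gave 23 genes higher in hypothalamus by 2-fold, the 22 named among them, and 18 higher in hippocampus, which added Atp5c1, Ndufs1, Sdha, Sdhd and Uqcrb to the 13.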

How the data were processed

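RNA was measured in 4 hippocampus and 3 hypothalamus libraries of DHA-fed rats, grouped by the titles in the labels. The authors deposited FPKM, 1 table per tissue, with 18087 loci in hippocampus and 17762 in hypothalamus. TopHat, Bowtie, TopHat2, Bowtie2, Cufflinks, Cuffdiff and the genome build rn5 are named in the submitters' processing notes. The annotation, the strand setting and the normalization between libraries are not given in the sources used here. FPKM carries no counts, so the depth is unknown and no counting interval was computed.

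The set of genes and the lists were chosen with earlier results of these data known, and membership in the set followed the symbols. Each symbol was represented by its locus of highest mean FPKM, and loci with a status other than OK were left out (86 in hippocampus, 24 in hypothalamus, none of them a member). Within a tissue, values were log2(FPKM + 1). Between tissues, values were scaled so that the symbols in both tables summed to 1000000 in every library, and a symbol was compared if its mean reached 1 FPKM in either tissue. The tables use separate locus numbers and were treated as separately normalized, so no test was made across them. The calls, no overlap and a 2-fold difference, are descriptions. Genes described by name were those called at 2-fold, the highest and lowest of each complex, the most variable, isoform genes and genes with several loci, with a few other members. A few more came from each of 6 pathway lists, except that of the mitochondrially encoded subunits, which had no gene listed for both tissues. The other lists hold markers of the tissues, neurons, glia, vessels, choroid plexus, meninges, muscle and parvalbumin interneurons. Alternatives were other pseudocounts, filters, scalings, loci and fold limits, and leaving out each library. The scripts (Python 3.11.15, pandas 2.3.3, numpy 2.4.6) were tested on simulated data. For 1 member no values are reported here and it is not drawn in the figures of single genes, though it is in the counts. Symbols were matched to RefSeq, where all 71 were found, 15 of them under a newer symbol.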

Additional observations from a re-analysis of the deposited data

Results flagged for a closer look

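Each hippocampus value below stood apart because the gap between the highest or lowest library and its nearest neighbour, divided by the range of the 4 libraries, was above Dixon's 95% critical value for 4 samples. Groups of 3, such as hypothalamus, were not examined in this way. Of 70 genes examined 7 stood apart, where chance gives about 3.5. Replicate 1 was highest for Atp5i, the ATP synthase e subunit (258 FPKM against 133 to 142, gap share 0.922), and for Ndufa6, an accessory subunit of complex I (73.1 against 29.0 to 36.5, gap share 0.8294). Replicate 3 was highest for Atp5f1, the b subunit of ATP synthase (10.1 against 1.25 to 2.60, gap share 0.848). Replicate 4 was highest for Ndufb6, a complex I membrane-arm subunit (5.92 against 3.59 to 3.75, gap share 0.931), and for Uqcrh, the complex III hinge protein (393 against 337 to 346, gap share 0.843). Replicate 4 was lowest for Sdha, the complex II flavoprotein (144 against 167 to 171, gap share 0.860), and for Uqcrc1, a complex III core protein (102 against 131 to 136, gap share 0.878).

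Among 8 summary values examined, 2 stood apart, both highest in replicate 1. They were the share of the set in the FPKM of the shared symbols (3.63% against 2.98% to 3.07%, gap share 0.873) and the median FPKM of complex I (92.6 against 69.4 to 72.7, gap share 0.858).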

How the results depend on the processing

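No paired analysis was possible because the comparison between tissues comes from no test, and the labels do not say that equal replicate numbers share an animal. FPKM as deposited gave 6 genes higher in hippocampus by 2-fold in place of 13, and a median difference of −0.42 in place of −0.12. A limit of 1.5-fold gave 20 such genes. The 34 genes with no named copy in RefSeq, an alternative chosen after seeing the data that tests fewer genes, gave 12 higher in hypothalamus and 6 higher in hippocampus by 2-fold, 16 and 8 without the fold limit, and a median difference of −0.33. Leaving out 1 library at a time gave 20 to 23 genes higher in hypothalamus by 2-fold, 12 to 17 higher in hippocampus, 30 to 34 and 21 to 26 without the fold limit, and a median difference from −0.27 to −0.02, the last without hypothalamus replicate 1. The median SD among replicates ranged from 0.16 to 0.25 in hippocampus and from 0.14 to 0.26 in hypothalamus, where 0.14 was without replicate 1. For single genes 1165 differences were recomputed, and no gene that was called at first changed sign. Uncalled genes were not counted in this, and some of them did change sign. On FPKM as deposited Ndufa1, Ndufa9 and Sdhc turned from positive values to −0.0075, −0.15 and −0.18. Of the 1165 differences, 42 moved by at least the larger of the replicate SDs of the tissues.

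Leaving out Atp5sl and Cox4nb, or requiring 50 FPKM, were also chosen after seeing the data, and both kept the counts within 1.5 times. Depth was unknown, so how far counting noise limits the low genes could not be stated. With 3 hypothalamus libraries the spread is poorly known. Tissue, table and its normalization cannot be told apart.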
